A study of Mus musculus with 4 samples.

Results

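The proteins of box H/ACA small nucleolar ribonucleoproteins (snoRNPs) were followed in mouse embryonic stem cells with and without knock-down of FBL, the methyltransferase of the box C/D snoRNPs. The 6 genes considered were Dkc1, Nop10, Nhp2, Gar1, Naf1 and Shq1, and a probe belonged to them when its accession was a RefSeq transcript of one of them. This gave 6 probes for 5 genes, of 41124 probes in all, with 2 probes for Dkc1 and 1 each for Nop10, Nhp2, Gar1 and Shq1. No probe matched Naf1, which was not analysed here. The 2 FBL-knock down samples were grown without tetracycline (Tc) for 2 days, and the 2 control samples with 1000 ng/mL Tc, all with leukaemia inhibitory factor (LIF) on gelatin. Both groups are the same line, in which FBL expression depends on Tc, so the control cells carry the knock-down system too, and loss of FBL and absence of Tc cannot be told apart. The parental line and the number of clones are not given in the sources used here. The labels do not say whether samples came from separate cultures, so each p-value covers the spread between these arrays alone, whether technical or biological.

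Box H/ACA snoRNPs convert uridine to pseudouridine in ribosomal and spliceosomal RNA, at positions chosen by the guide RNA. Dyskerin, the product of Dkc1, is the catalytic subunit, and NOP10, NHP2 and GAR1 complete the mature particle. NAF1 holds the place of GAR1 while the particle is built, and SHQ1 chaperones dyskerin before it meets the guide RNA. The same core proteins bind telomerase RNA, and in human patients mutations of several of them cause the telomere disease dyskeratosis congenita. Box C/D snoRNPs, to which FBL belongs, guide the other main modification of ribosomal RNA, methylation of the 2′-hydroxyl, and share no core protein with the H/ACA particle.

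Levels are log2 signals with the 75th percentile of each array set to 0, and differences are FBL-knock down minus control on that log2 scale, from limma with the 95% interval of the fit. Per array, 24501 to 26410 of 41174 probes exceeded background clearly. The small number of arrays sets the precision. FBL-knock down replicate 2 was alone on the second of 2 slides. The gap between the control arrays was wider than that between the FBL-knock down arrays, with a standard deviation over all tested probes of 0.31 between the FBL-knock down samples and 0.51 between the control samples. Fbl, the targeted gene, stood at 5.98 and 5.94 in the FBL-knock down samples, against 8.63 and 8.12 in the control samples. It fell 5.32-fold (log2 difference −2.41 ± 0.25 SE, limma adjusted p = 4.44e-04, n = 2 per group). Of the embryonic stem cell markers, 11 of 11 measured were well above background on all arrays. Of the fibroblast markers, 5 of 10 were, while Col3a1, Dcn and Postn were on none. The cells are bulk samples, in which fewer cells of a type and less RNA per cell cannot be told apart.

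None of the 6 H/ACA probes passed limma at an adjusted p of 0.05, beside 6.20% of the 25078 probes tested, and 1 had an unadjusted p under 0.05, beside 20.1% of all. All 6 were well above background on all 4 arrays and entered the test. Their adjusted p ranged between 0.183 and 0.978. Their median difference was 0.07, against −0.06 for all tested probes. The members did not lie to one side: 4 probes, 2 of them of Dkc1, had a positive and 2 a negative difference. By gene, with Dkc1 at its brighter probe, the median was 0.02, with 3 higher and 2 lower differences. The lowest was that of Nop10 and the highest that of Gar1, and at these 2 of the 6 probes the FBL-knock down and control values did not overlap, beside 51.4% of all tested probes. The smallest difference that passed at any tested probe was 0.86 in size, and all 6 H/ACA differences were smaller than that.

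**Figure D1:**
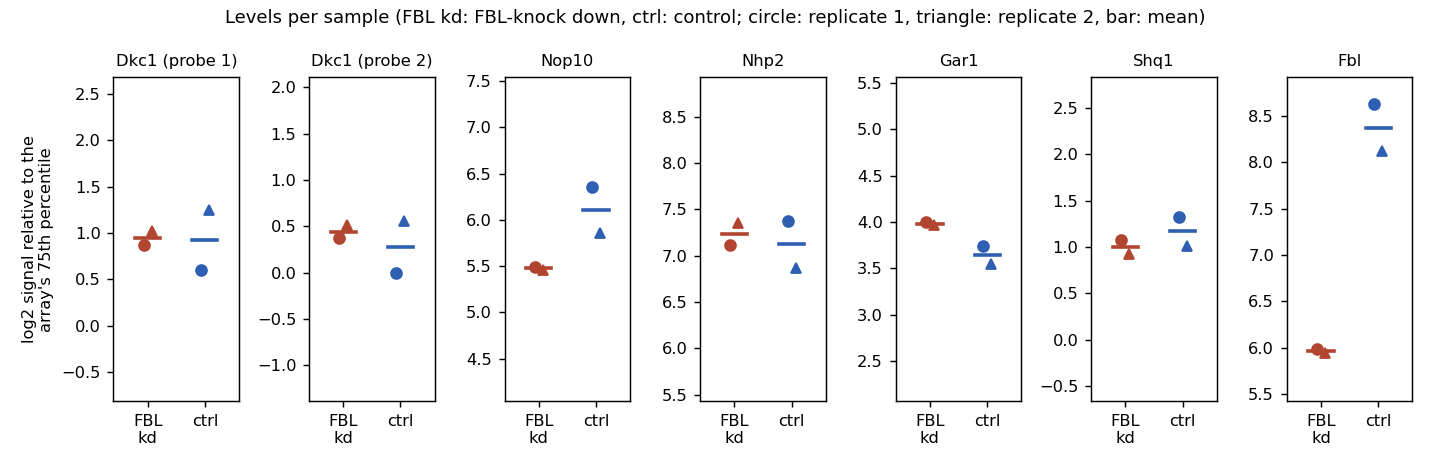
Log2 level for the 6 H/ACA probes and Fbl, with FBL-knock down samples (red) left of control samples (blue), replicate 1 as a circle, replicate 2 as a triangle and the mean as a bar; every panel spans the same number of log2 units. Fbl is separated by 2.41, Nop10 and Gar1 show groups that do not overlap, and the groups overlap at the other 4 H/ACA probes.

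Nop10, the smallest protein of the particle, which contacts dyskerin and NHP2, had the largest difference. Its level was 5.49 and 5.46 in the FBL-knock down samples, against 6.35 and 5.86 in the control samples. Before scaling between arrays, the processed signal of the probe was 28428 and 22019 in the FBL-knock down samples and 45583 and 46489 in the control samples. Both FBL-knock down values lay below both control values, as they did for 30.6% of all tested probes. The difference was −0.63 ± 0.25 SE, a ratio of 0.646 of FBL-knock down to control, with an interval of −1.18 to −0.08 (limma unadjusted p = 0.0282, adjusted p = 0.183). The probe therefore did not pass. Over all tested probes, 8.03% had a difference as low or lower. Control replicate 1 held the highest scaled level, and the difference was −0.39 without that array and −0.87 without control replicate 2. Each of these fits keeps 1 control array, so only the size is read. The probe passed with normexp background correction (−0.72, limma adjusted p = 0.0461), where 1214 of 25078 tested probes passed. Within slide 1 the difference was −0.62 with an interval of −1.50 to 0.26.

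Gar1 encodes the subunit that joins last, in place of NAF1, and carries glycine- and arginine-rich stretches as FBL does. Its level was 3.996 and 3.967 in the FBL-knock down samples, against 3.74 and 3.55 in the control samples. The FBL-knock down values lay above both control values, as at 20.8% of all tested probes. The difference was 0.34 ± 0.23 SE, a 1.26-fold higher mean, with an interval of −0.17 to 0.84 (limma adjusted p = 0.459). The processed signals before scaling did overlap, at 10088 and 7823 in the FBL-knock down samples and 7482 and 9349 in the control samples. Of all tested probes, 17.6% had a difference as high or higher. Within slide 1 the difference was 0.35, with an interval of −0.53 to 1.23.

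The promoters of Nop10 and Gar1 are shown because these 2 genes had the lowest and the highest difference. Each is the RefSeq window of build GRCm38.p6 from 250 bases before to 50 bases after the gene's start, printed 5′ to 3′ on the strand of the gene. Capitals mark CGGAAG or its reverse complement CTTCCG, the core of the sites of ETS family factors. The Nop10 window is chr2:112261676-112261975 on the plus strand, and that of Gar1 is chr3:129831347-129831646 on the minus strand.
Nop10: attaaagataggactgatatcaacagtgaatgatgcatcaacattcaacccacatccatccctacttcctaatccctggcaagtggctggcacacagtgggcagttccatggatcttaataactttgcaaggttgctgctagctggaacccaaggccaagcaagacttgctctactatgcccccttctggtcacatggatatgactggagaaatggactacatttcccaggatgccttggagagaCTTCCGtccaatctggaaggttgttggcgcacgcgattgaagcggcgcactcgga
Gar1: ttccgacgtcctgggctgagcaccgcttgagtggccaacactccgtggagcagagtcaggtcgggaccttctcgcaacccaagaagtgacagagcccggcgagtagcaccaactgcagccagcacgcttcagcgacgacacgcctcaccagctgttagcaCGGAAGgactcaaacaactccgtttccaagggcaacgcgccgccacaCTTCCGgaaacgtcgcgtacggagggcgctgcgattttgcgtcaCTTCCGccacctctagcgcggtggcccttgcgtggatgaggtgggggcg
The Nop10 window held 1 match and that of Gar1 held 3. Of the 5 H/ACA genes with a window (Dkc1, Nop10, Nhp2, Gar1 and Shq1), 4 had at least 1 match, all but Dkc1, where 16.9% of 32851 RefSeq windows of this length did. The E-box CACGTG was in 0 of the 5 windows, against 7.15% of all. CCAAT or ATTGG was in 3 of the 5, against 37.4%, GGGCGG or CCGCCC in 2, against 35.7%, and TATAAA or TTTATA in 1, that of Dkc1, against 13.6%. Both strands were searched, the motifs were chosen after the windows had been seen, and a match is a description of letters only.

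Dkc1, the gene of the pseudouridine synthase itself, was read by 2 probes of 1 accession. At the brighter probe the level was 0.87 and 1.02 in the FBL-knock down samples, against 0.60 and 1.25 in the control samples. Both FBL-knock down values lay between the control values. The difference was 0.02 ± 0.27 SE with an interval of −0.57 to 0.61 (limma adjusted p = 0.978), which spans ratios of FBL-knock down to control of 0.672 to 1.53. The dimmer probe gave 0.37 and 0.51 in the FBL-knock down samples, against −0.01 and 0.56 in the control samples. Its difference was 0.17 ± 0.26 SE, with an interval of −0.40 to 0.73 (limma adjusted p = 0.784). The gap between the control samples, replicate 1 minus replicate 2, was −0.65 at the brighter and −0.56 at the dimmer probe, so it appeared at both. The sign of the difference at the brighter probe turned without control replicate 1 (−0.31) and within slide 1 (−0.054).

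Nhp2 encodes the L7Ae-family protein of the particle, a relative of SNU13, which holds the matching place in box C/D snoRNPs. Its level was 7.12 and 7.35 in the FBL-knock down samples, against 7.37 and 6.87 in the control samples. The groups overlapped. The difference was 0.11 ± 0.25 SE, with an interval of −0.45 to 0.67 (limma adjusted p = 0.858). It was −0.14 without control replicate 2 and 0.36 without control replicate 1, so its direction rests on which control array is kept.

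Shq1, the assembly chaperone, stood at 1.07 and 0.92 in the FBL-knock down samples, against 1.33 and 1.01 in the control samples. FBL-knock down replicate 1 lay between the control values, so the groups overlapped. The difference was −0.17 ± 0.23 SE, with an interval of −0.69 to 0.35 (limma adjusted p = 0.748). It was −0.013 without control replicate 1, −0.33 without control replicate 2 and −0.10 within slide 1. At all 6 H/ACA probes the scaled levels of the control samples differed from each other more than those of the FBL-knock down samples did. On that scale control replicate 1 was the higher of the pair for Nop10, Nhp2, Gar1 and Shq1, and the lower for Dkc1. Before scaling, control replicate 1 had the lower signal at all 6, for example 92576 against 93694 at Nhp2 and 1404 against 1611 at Shq1. The order at Nop10, Nhp2, Gar1 and Shq1 therefore rests on the scaling. It set a signal of 557 to 0 on control replicate 1 and one of 800 on control replicate 2.

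**Figure D2:**
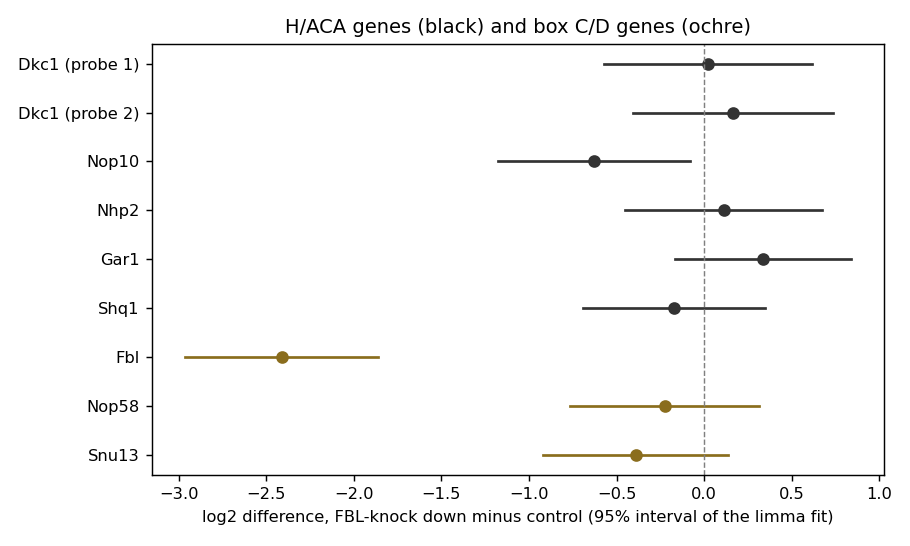
Log2 difference, FBL-knock down minus control, with the 95% interval of the limma fit, for the 6 H/ACA probes (black) and the 3 measured box C/D genes (ochre). Of the H/ACA intervals only that of Nop10 (−1.18 to −0.08) leaves out 0, before any adjustment for the number of probes, and the interval of Fbl (−2.96 to −1.86) lies below all of them.

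**Figure D3:**
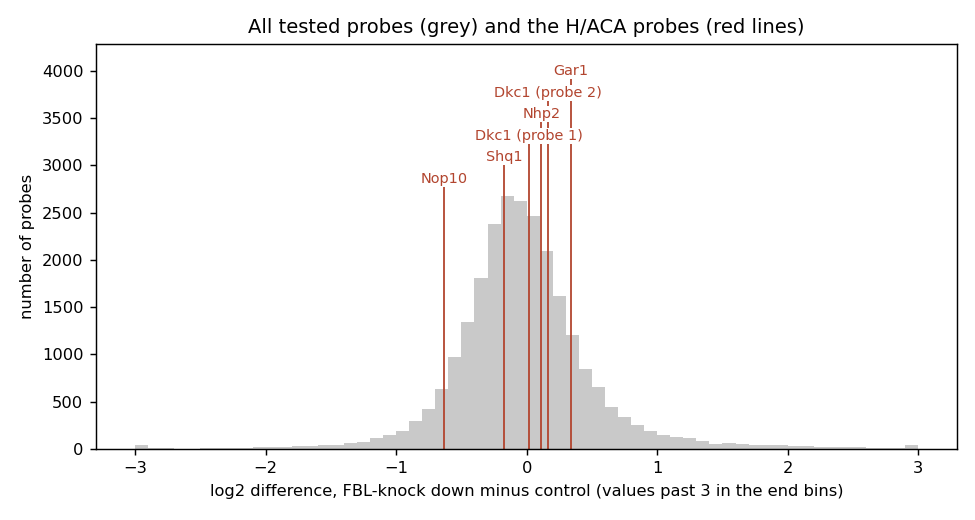
Number of tested probes by log2 difference, FBL-knock down minus control (grey, bins of 0.1), with the H/ACA probes as red lines. The 6 lines run from −0.63 (Nop10) to 0.34 (Gar1), within the bulk of all probes, whose median was −0.06.

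Ratios between H/ACA probes within 1 array do not depend on how arrays are scaled to each other. Their size reflects the brightness of the probes, so only the change of a ratio between groups is read, as a description with no test. The log2 ratio of Nop10 to Gar1 was 1.49 and 1.49 in the FBL-knock down samples, against 2.61 and 2.31 in the control samples. The difference of the means was −0.97. The groups of this ratio could not overlap, because Nop10 lay below both control values and Gar1 above both. Nop10 to Nhp2 gave −1.63 and −1.89 in the FBL-knock down samples, against −1.02 and −1.01 in the control samples. Nop10 to Shq1 gave 4.42 and 4.54 in the FBL-knock down samples, against 5.02 and 4.85 in the control samples. Of the 14 ratios between probes of different H/ACA genes, 6 had groups that did not overlap, 4 of them among the 5 that involve Nop10. Those 5 share the Nop10 values, so they are not separate observations. Over all pairs of tested probes, 55.2% of ratios did not overlap. The ratio of Gar1 to Shq1 was 2.92 and 3.04 in the FBL-knock down samples, against 2.41 and 2.54 in the control samples.

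The box C/D core was the nearest complex for comparison, with 3 of 4 genes measured. Beside Fbl, Nop58, a scaffold protein of that particle, stood at 4.35 and 4.42 in the FBL-knock down samples, against 4.39 and 4.83 in the control samples (difference −0.22, limma adjusted p = 0.677). Snu13 stood at 5.35 and 5.08 in the FBL-knock down samples, against 5.75 and 5.47 in the control samples (−0.39, limma adjusted p = 0.408). Neither passed, so Fbl was the 1 measured gene of either core that did.

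Telomerase shares the H/ACA core, and 9 of 10 genes of telomerase and of telomerase RNA maturation were measured. None passed limma, 2 of 9 had an unadjusted p under 0.05 (Wrap53 and Tert) beside 20.1% of all tested probes, 6 were higher and 3 lower, and their median difference was 0.05. Wrap53, whose product brings telomerase RNA and other Cajal body H/ACA RNAs to that body, was the brightest at 5.58 and 5.58 in the FBL-knock down samples, against 5.11 and 4.58 in the control samples. Its difference was 0.73 ± 0.25 SE (limma unadjusted p = 0.0151, adjusted p = 0.130). Pinx1, an inhibitor of telomerase, had a difference of −0.08 at its brighter and −0.40 at its dimmer probe. Tert and Terc were named for their roles after their values had been seen. Tert, the reverse transcriptase, stood at −0.12 and −0.08 in the FBL-knock down samples, against −0.66 and −0.83 in the control samples (difference 0.64 ± 0.22 SE, limma unadjusted p = 0.0166, adjusted p = 0.136). Terc, the telomerase RNA and itself an H/ACA RNA, had −2.68 and −2.47 in the FBL-knock down samples, against −2.22 and −2.93 in the control samples. Its groups overlapped, and the difference was 0.0032 with an interval of −0.61 to 0.62. Of 7 shelterin genes, which encode the telomere-binding complex, 6 were measured and none passed limma, with 0 at an unadjusted p under 0.05 (median −0.12), with Pot1a at −0.16 and Terf1 at −0.13.

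Stand-alone pseudouridine synthases make the same modification without a guide RNA. Of 12, 10 were measured and none passed limma, with 0 at an unadjusted p under 0.05, 4 higher, 6 lower and a median difference of −0.21. Trub2, a mitochondrial member of the TruB family to which dyskerin also belongs, had a difference of 0.30 (adjusted p = 0.536), and Rpusd4, a mitochondrial enzyme, one of −0.27 (adjusted p = 0.567). Of 11 genes of the Cajal body and of small RNA transport, none passed limma, with 2 higher, 9 lower and a median of −0.18. Gemin2 and Ncbp2, named after their values had been seen, were the 2 with an unadjusted p under 0.05, beside 20.1% of all tested probes. Their differences were −0.63 and −0.66 (limma adjusted p = 0.156 and 0.133). At their dimmer probes the differences were smaller, −0.17 for Gemin2 and −0.24 for Ncbp2. Ran, the nuclear transport GTPase, had a difference of −0.17 and Tcof1, a nucleolar protein of ribosomal RNA synthesis, one of −0.16. Of 4 host genes of H/ACA snoRNAs only Snhg3 was measured, and its difference was 0.02.

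Of the markers of other cell types that the cultures could hold, each at its brightest tested probe, 4 of 25 tested passed limma (Krt7, Kdr, Sox7 and Elf5). Of all tested probes, 6.20% did. Well above background on all arrays were 7 of 8 trophectoderm, 4 of 8 primitive endoderm and 5 of 8 mesoderm and neural genes. The summed level of a list, in units of the array's 75th percentile, was 28.1 to 31.2 in the FBL-knock down samples and 17.9 to 22.2 in the control samples for 8 trophectoderm genes. Tfap2c made up 62.3% to 78.2% of that sum on each array, and without it the sums overlapped, at 6.79 to 7.45 in the FBL-knock down samples and 6.22 to 8.37 in the control samples. For 8 primitive endoderm genes the summed level was 0.313 to 0.322 in the FBL-knock down samples and 0.386 to 0.604 in the control samples. Sox7 is in that sum, at log2 levels of −5.39 and −5.35 in the FBL-knock down samples, against −3.22 and −3.21 in the control samples. Pdgfra, at a probe well above background on no array, stood at −3.28 in control replicate 1 and −8.08 in control replicate 2. The processed signals of that probe were 2.69 and 2.79 on these arrays. This sum is therefore not read as a change of the list. For 10 fibroblast genes the sums were 3.86 to 4.22 in the FBL-knock down samples and 4.80 to 7.39 in the control samples, and for 8 mesoderm and neural genes 7.25 to 8.46 in the FBL-knock down samples and 7.08 to 11.6 in the control samples. Thy1 made up 75.4% to 86.8% of the fibroblast sum, which without it was 0.941 to 1.037 in the FBL-knock down samples and 0.697 to 0.974 in the control samples. Tubb3 made up 93.1% to 95.9% of the mesoderm and neural sum. Embryonic stem cell markers summed to 904 to 1176 in the FBL-knock down samples and 897 to 1090 in the control samples. Dppa5a made up 57.9% to 72.8% of it, and without Dppa5a the sum was 317 to 319 in the FBL-knock down samples and 377 to 394 in the control samples. Krt7, a keratin of simple epithelia, rose (1.63, limma adjusted p = 0.00393), as did Kdr, a receptor of the endothelial growth factor VEGF (1.19, adjusted p = 0.0113). Sox7, a transcription factor of primitive endoderm, fell (−2.15, adjusted p = 4.44e-04). Of the 6 tested primitive endoderm genes, 2 were higher and 4 lower. Sox17 and Gata4 were named after their values had been seen. Sox17 was higher, by 0.80 at its brightest tested probe (limma adjusted p = 0.114) and by 1.86 at a dimmer probe. Gata4 had −1.85 with groups that overlap (limma adjusted p = 0.157). Elf5, a transcription factor of trophoblast, passed as lower (−1.63, adjusted p = 0.0223). Elf5 entered the test through the control arrays and was well above background on 1 of 2 FBL-knock down arrays, so the size of its difference is set in part by a value at background. Within slide 1, with 1 FBL-knock down array, Kdr had a difference of 1.23 and no longer passed (adjusted p = 0.158), and Elf5 had −1.03 (adjusted p = 0.382). Afp and Neurog2 were well above background on no array, nor was Pdgfra at the probe with the higher mean. At its brightest tested probe, no embryonic stem cell or fibroblast marker passed limma. An unadjusted p under 0.05 was found for 12 of the 25 tested markers of other cell types, beside 20.1% of all tested probes. By list these were 5 of 8 trophectoderm, 3 of 6 primitive endoderm, 3 of 6 mesoderm and neural and 1 of 5 fibroblast markers. Among the stem cell markers it was found for 3 of 11. The 3 were Zfp42 and, named after their values had been seen, Nanog (−0.82, adjusted p = 0.0605) and Lin28a (−0.62, adjusted p = 0.164), and the fibroblast marker was Thy1. Dppa5a had a difference of 0.24 at its brighter and −0.078 at its dimmer probe, and −0.036 at the brighter probe within slide 1. Among the other brightest genes of these lists, the difference was −0.61 for Zfp42, −0.75 for Thy1 and 0.17 for Pdgfrb. At the dimmer probes it was −0.54 for Zfp42 and −1.35 for Thy1, larger in size for Thy1 than at its brighter probe. The median difference was −0.32 for the stem cell list, 0.22 for fibroblast, −0.17 for primitive endoderm, 0.42 for trophectoderm and −0.31 for mesoderm and neural genes. The part of these markers in the H/ACA values was not tested.

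Over the 4 arrays, the genes whose centred profiles lay nearest to that of the brighter Dkc1 probe were Senp6, Reep3 and Zfp655, at Euclidean distances of 0.0198, 0.0201 and 0.0247 log2 units. Those nearest to Nop10 were Prdx6, Bri3bp and Hap1, at 0.0241, 0.0383 and 0.0395. With 4 points a profile, each of these is a description of these arrays.

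**Figure D4:**
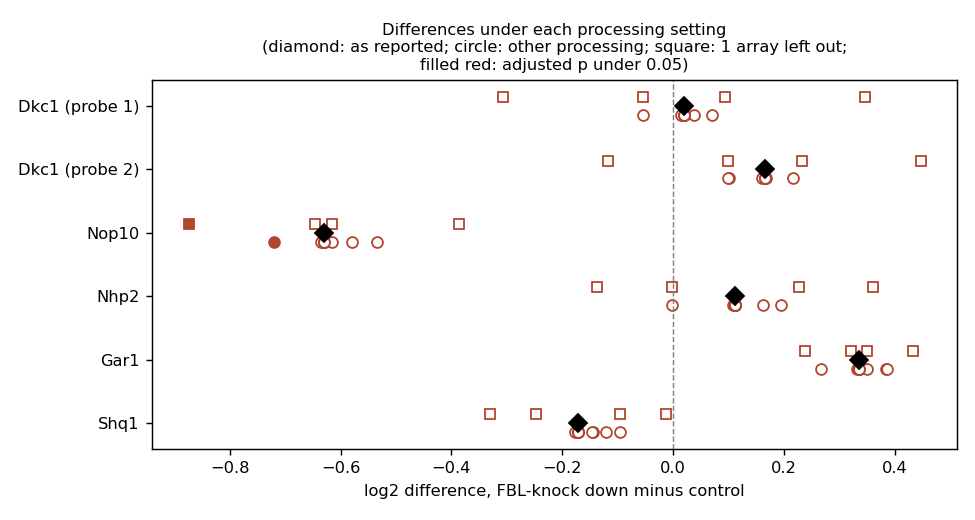
Log2 difference, FBL-knock down minus control, of each H/ACA probe as reported (diamond), under other processing (circles) and with 1 array left out (squares), filled red where the adjusted p was under 0.05. Nop10 runs from −0.87 to −0.39 and is filled in 2 settings, Gar1 runs from 0.24 to 0.43, and the points of Dkc1 and Nhp2 lie on both sides of 0.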

How the data were processed

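Total RNA of 4 samples was hybridised to 1-colour (Cy3) Agilent arrays, 1 array per sample. Per the file headers, Agilent Feature Extraction 10.7.3.1 made each deposited spot intensity by subtracting background and detrending, with no scaling from one array to the next. The series value table is on a log2 scale, as deposited: 99.8% of entries per array equalled the log2 scanner signal less a constant (tolerance 0.01). The 75th percentiles were at 0 within that tolerance, and probes were not centred. Its medians were −3.94 and −3.91 for the FBL-knock down samples and −3.85 and −3.98 for the control samples. No source used here names the software behind it.

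Levels came from that table, and flags for background and outliers from the scanner files. Control spots were left out, as were 50 probes that had only flagged spots on some array. No spot was saturated. Names came from accessions, matched without version to RefSeq genes of GRCm38.p6, which named 24350 of 41124 probes with 1 gene. A probe was tested when well above background, on at least 50% of its spots, on both arrays of at least 1 group. Each probe was its own row in limma 3.58.1 (lmFit and eBayes, two-sided, R 4.3.3), adjusted by Benjamini-Hochberg over all 25078 tested probes. The fit was tested on simulated data. Genes of the other lists are shown by their brightest tested probe, or the brightest of all where none was tested.

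Named genes are all H/ACA members, Fbl, up to 4 called genes of each list (otherwise its 2 brightest) and the 3 genes nearest in profile to Dkc1 and to the member with the largest difference. The measured box C/D genes, the markers above background on no array and the genes said to be chosen after their values had been seen were named outside this rule. The members and lists were chosen with earlier results of these data known.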

Additional observations from a re-analysis of the deposited data

How the results depend on the processing

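Slide 2 holds FBL-knock down replicate 2 alone, so the slide as a block and leaving out that array are the same fit, and the 15 alternatives were 14 distinct fits. Over these the H/ACA probes gave 0 calls in limma except with normexp background correction and without control replicate 2, each with 1 call, Nop10. Leaving out 1 array in turn gave 0 to 1 calls. The files hold no mean spot signal, so normexp was run on the spot medians. The median difference of the H/ACA probes was −0.028 with the slide as a block and −0.065 to 0.16 with 1 array left out. The brighter Dkc1 probe turned to −0.054 and Nhp2 to −0.0019 with the slide as a block. With 1 array left out, the differences were −0.31 to 0.35 and −0.12 to 0.45 for the brighter and the dimmer Dkc1 probe and −0.14 to 0.36 for Nhp2, and the cause was not tested. Over all probes, 1556 passed as reported (936 higher, 620 lower), against 2652 with trend and robust, 686 with the slide as a block and 686 to 5398 with 1 array left out. Without a filter on dim probes 0 passed in limma, 3878 had an unadjusted p under 0.05, and Fbl did not pass (−2.41, adjusted p = 0.0997). The labels number the replicates, and the deviations of samples with the same number correlated at 0.02. The FBL-knock down pair lies on 2 slides, so its deviation also carries the slide, and this value cannot decide whether the numbers are pairs. The fit as reported was unpaired. A fit with the replicate block passed 2286 probes and 0 H/ACA probes. With normexp, the slide or replicate block, or an FBL-knock down array left out, the prior had infinite degrees of freedom, so every probe had the same variance. Fits without a control array take the spread from the FBL-knock down pair alone, which is narrower. They keep 1 control sample and passed more probes over all than the fit as reported. The call of Nop10 without control replicate 2 is therefore not read as a result.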
